A study of Mus musculus with 18 samples.

Results

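MRGPRX2, GM364, SEC14L2, STXBP6 and SGK3 are 5 mouse genes whose mRNA was nearly lost from one or both *Kmt2* knockouts of the mammary tumour line 168FARN. They were picked by the size of their fall in the 168FARN counts, so their 168FARN values are described here without a test. The tests below use the second line, 67NR, whose values the rule of choice did not use. Earlier results of these data were known when the genes and the tests were chosen. The 5 genes are 5 of 24360 gene symbols with a row in each count table, and all 5 passed the filter on low counts in both lines. 168FARN and 67NR are non-metastatic lines of mouse mammary tumour origin, grown in the same serum-containing medium. Each line was measured by RNA-seq as WT, *Kmt2c* KO and *Kmt2d* KO cells, with 3 libraries of each genotype and 18 in all. The knockouts are sorted pools of cells, not clones, made by transient transfection of Cas9 and guide RNAs against the first exon. The WT columns of 168FARN are named as control guide RNA cells and those of 67NR as WT. Replicates are successive collections of the same cultures, so the p-values measure the spread between collections.

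*Kmt2c* and *Kmt2d* encode histone methyltransferases of COMPASS-like complexes, which place monomethylation on lysine 4 of histone H3 at enhancers and thereby take part in keeping cell type-specific genes active. The 5 genes come from different families. *Mrgprx2* encodes a Mas-related G protein-coupled receptor, a family known mainly from sensory neurons and mast cells. *Sec14l2* encodes a CRAL-TRIO protein that binds tocopherol and other lipids and stimulates squalene epoxidation in cholesterol synthesis. *Stxbp6*, also called amisyn, encodes a syntaxin-binding protein that restrains SNARE-driven vesicle fusion. *Sgk3* encodes a serine/threonine kinase that a PX domain holds at endosomes, where it acts beside AKT downstream of PI3-kinase. *Gm364* is a predicted protein-coding gene.

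The genes lie on 5 chromosomes, so no pair of them shares a neighbourhood. In mm9, the build of the authors' alignment, *Mrgprx2* lies on chromosome 7 from 55733989 to 55754640 on the minus strand and *Gm364* on chromosome X from 54662331 to 54741944 on the plus strand. *Sec14l2* lies on chromosome 11 from 3997042 to 4023418 and *Stxbp6* on chromosome 12 from 45953475 to 46175480, both on the minus strand. *Sgk3* lies on the plus strand of chromosome 1 from 9788211 to 9892637. The counts are of whole genes, so exons and isoforms were not told apart.

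The sequences just upstream of the transcription start are shown for the 3 genes nearly lost from *Kmt2c* KO cells, since the factors that keep a gene active often bind there. They are the 250 bases before the start in RefSeq's promoter table, whose build is GRCm38.p6, another build than that of the counts. Of the 5 genes, 4 matched an entry by symbol, and *Sgk3* has none. Each is written 5′ to 3′ on the strand of the gene, with CpG dinucleotides, the targets of DNA methylation, in capitals.
Mrgprx2: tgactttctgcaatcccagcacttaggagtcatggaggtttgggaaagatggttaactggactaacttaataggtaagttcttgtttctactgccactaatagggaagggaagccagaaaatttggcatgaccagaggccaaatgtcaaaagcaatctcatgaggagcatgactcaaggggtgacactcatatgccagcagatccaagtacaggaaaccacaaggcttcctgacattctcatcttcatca
Gm364: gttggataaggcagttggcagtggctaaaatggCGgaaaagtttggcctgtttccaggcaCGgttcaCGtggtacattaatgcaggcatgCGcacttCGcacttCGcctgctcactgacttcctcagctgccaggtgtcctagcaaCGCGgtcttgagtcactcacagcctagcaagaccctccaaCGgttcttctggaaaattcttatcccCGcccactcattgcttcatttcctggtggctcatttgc
Sec14l2: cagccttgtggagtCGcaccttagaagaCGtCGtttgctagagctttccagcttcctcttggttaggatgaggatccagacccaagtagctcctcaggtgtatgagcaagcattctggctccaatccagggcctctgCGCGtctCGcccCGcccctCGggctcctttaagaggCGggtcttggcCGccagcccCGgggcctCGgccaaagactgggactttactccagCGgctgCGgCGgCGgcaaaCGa
These stretches are chr7:48499271-48499520 on the minus strand for *Mrgprx2*, chrX:57408899-57409148 on the plus strand for *Gm364* and chr11:4118730-4118979 on the minus strand for *Sec14l2*.

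The start regions differed in composition. *Mrgprx2* had 0 CpG and a GC content of 44.4%, *Gm364* had 10 CpG and 52.8%, and *Sec14l2* had 17 CpG and 61.6%. *Stxbp6*, at chr12:45074484-45074733 on the minus strand, had 12 CpG and a GC content of 65.2%. Over all 32851 promoters of the table the medians were 6 CpG and 52.4%. In all, 6 short motifs were searched on both strands, with overlaps allowed. The AP-1 site, TGACTCA, was found in *Mrgprx2* and *Gm364* and stands in 4.5% of all promoters. The GC box, GGGCGG, which 32.7% of promoters hold, was found in *Gm364* and *Sec14l2*. *Gm364* also held the E box, CACGTG, as did 6.0% of promoters. *Sec14l2* also held the CCAAT box, spelled as its name, as did 33.8% of promoters. None of the 6 was found in *Stxbp6*. The TATA box, TATAAA (12.4% of promoters), and the cAMP response element, TGACGTCA (1.5%), were found in none of the 4 windows. A match of letters describes these windows and is not a measured binding site.

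Expression is given as CPM, a library-size-scaled read count, after edgeR's TMM method within each line. Because the tables of the lines were scaled separately, a level in one line set beside the other is approximate. The libraries of 168FARN held between 14359760 and 43427382 counted reads and those of 67NR between 40951775 and 79251530. The ribosomal row *Rn45s* took 0.458 to 4.96% of reads in 168FARN and 0.495 to 28.7% in 67NR, where *Kmt2d* KO replicate 3 stood apart. *Kmt2c* mRNA spanned 44.7 to 113 CPM in WT and 46.9 to 96.7 CPM in *Kmt2c* KO cells of 168FARN, and 54.6 to 63.1 and 85.5 to 95.7 CPM in 67NR. *Kmt2d* mRNA spanned 104 to 160 CPM in WT and 136 to 296 CPM in *Kmt2d* KO cells of 168FARN, and 83 to 112 and 94.1 to 147 CPM in 67NR. Counts over whole genes therefore did not check the knockout labels. The paper checked the knockouts otherwise, by sequencing the targeted regions and by immunoblot, which showed reduced protein in both lines. Its share of mutant reads for *Kmt2c* was lower in 67NR than in 168FARN.

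The receptor gene *Mrgprx2* was abundant in 168FARN WT and *Kmt2d* KO cells and nearly absent from *Kmt2c* KO cells. WT replicates 1 to 3 had 31.7, 30 and 24 CPM. *Kmt2c* KO replicates had 0.423, 0.518 and 0.24 CPM, which were 13, 20 and 9 reads. *Kmt2d* KO replicates had 43.9, 34.3 and 31.6 CPM. The *Kmt2c* KO libraries lay far below the other 6, and the WT and *Kmt2d* KO libraries overlapped. The means were 28.6 ± 4.01 CPM in WT (SD, n = 3) and 0.394 ± 0.141 CPM in *Kmt2c* KO cells, a 72.6-fold lower level. Between libraries of the same replicate number the fold was 57.9 to 100.

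In 67NR the same gene went the other way. WT replicates of 67NR had 0.672, 0.845 and 0.18 CPM for *Mrgprx2*. The *Kmt2c* KO replicates had 41.1, 46.5 and 33.3 CPM and the *Kmt2d* KO replicates 8.44, 12.1 and 8.1 CPM. All 6 knockout libraries were above all 3 WT libraries, and the 2 knockouts did not overlap each other. *Mrgprx2* rose 71.3-fold in *Kmt2c* KO and 16.9-fold in *Kmt2d* KO cells by the group means. In the quasi-likelihood test of edgeR, adjusted over all genes by Benjamini-Hochberg, the log2 fold changes were 6.11 (SE 0.49, adjusted p = 2.5e-05) and 4.03 (SE 0.45, adjusted p = 0.00029). Among the 6 groups of both lines, 67NR *Kmt2c* KO cells ranked highest at 40.3 CPM. They overlapped 168FARN *Kmt2d* KO cells at 36.6 CPM, which overlapped 168FARN WT cells at 28.6 CPM. 67NR *Kmt2d* KO cells followed at 9.56 CPM, apart from the groups on either side. 67NR WT cells at 0.566 CPM and 168FARN *Kmt2c* KO cells at 0.394 CPM came last and overlapped.

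*Gm364*, the predicted gene on the X chromosome, was like *Mrgprx2* nearly absent from *Kmt2c* KO cells of 168FARN only. It had 78.2, 76.7 and 119 CPM in WT replicates 1 to 3. In *Kmt2c* KO replicates it had 0.423, 0.389 and 0.427 CPM, which were 13, 15 and 16 reads. In *Kmt2d* KO replicates it had 61.8, 47.3 and 117 CPM, and these overlapped WT. The mean was 91.2 ± 23.9 CPM in WT and 0.413 ± 0.021 CPM among *Kmt2c* KO libraries (SD, n = 3), a 221-fold lower level and the largest fold among the 5 genes with reads left in the knockout. Replicate 3 was the highest in both WT and *Kmt2d* KO cells, whereas it was the lowest in both for *Mrgprx2*. The ratio of WT to *Kmt2d* KO within replicate numbers was 1.01 to 1.62.

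*Gm364* was low in every 67NR group, and lowest in WT. The WT libraries had 0.255, 0.344 and 0.27 CPM (22, 24 and 12 reads), the *Kmt2c* KO libraries 1.11, 1.49 and 1.84 CPM and the *Kmt2d* KO libraries 1.76, 1.21 and 1.95 CPM. Each knockout library exceeded every WT library. The rise was 5.12-fold in *Kmt2c* KO and 5.65-fold in *Kmt2d* KO cells, with log2 fold changes of 2.34 (SE 0.39, adjusted p = 0.0016) and 2.49 (SE 0.39, adjusted p = 0.002) by the same edgeR test. These levels stayed far under the 91.2 CPM of 168FARN WT cells, to which 67NR WT cells compared at 0.29 CPM. In the order of the 6 group means, WT and *Kmt2d* KO of 168FARN overlapped at the top, *Kmt2d* KO and *Kmt2c* KO of 67NR overlapped in the middle, and 168FARN *Kmt2c* KO and 67NR WT cells came last without overlap.

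*Sec14l2* was the member that nearly vanished from both 168FARN knockouts, which were compared with the same WT libraries. WT replicates had 8.58, 9.89 and 5.09 CPM. The *Kmt2c* KO replicates had 0.228, 0.311 and 0.107 CPM (7, 12 and 4 reads) and the *Kmt2d* KO replicates 0.346, 0.424 and 0.481 CPM (8, 6 and 13 reads). Within replicate numbers, WT was 31.8- to 47.7-fold above *Kmt2c* KO and 10.6- to 24.8-fold above *Kmt2d* KO, and no knockout library came near WT. The mean of 7.85 ± 2.48 CPM in WT (SD, n = 3) was 36.5-fold that of *Kmt2c* KO and 18.8-fold that of *Kmt2d* KO cells.

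In 67NR, where WT cells had a like level of *Sec14l2*, the loss was not seen. The WT libraries had 9.64, 9.99 and 10.1 CPM, the *Kmt2c* KO libraries 8.53, 7.18 and 8.52 CPM and the *Kmt2d* KO libraries 5.06, 4.73 and 7.48 CPM. Both knockouts lay under WT without overlap, by 1.23-fold and 1.72-fold. The edgeR quasi-likelihood test gave a log2 fold change of -0.30 in *Kmt2c* KO cells (SE 0.22, adjusted p = 0.34), with a 95% interval from -0.83 to 0.24. In *Kmt2d* KO cells it gave -0.79 (SE 0.22, adjusted p = 0.03), a call that was lost without *Kmt2d* KO replicate 1 or replicate 2 (adjusted p = 0.12 in each). Over all 9 libraries its 95% interval was -1.32 to -0.25. The 168FARN knockouts were the lowest of the 6 groups, apart from the others and from each other, while 168FARN WT cells overlapped the 67NR knockouts on either side.

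*Stxbp6* was the member that reached 0. In 168FARN, WT replicates had 2.09, 2.32 and 2.51 CPM, or 63, 78 and 108 reads. The *Kmt2c* KO replicates had 2.05, 0.907 and 0.987 CPM. All 3 *Kmt2d* KO libraries had 0 reads, so that against a floor of 3 reads in each library the gene was at least 15.3-fold lower than in WT. The *Kmt2c* KO libraries were lower than WT by 1.76-fold on average without overlap, though replicate 1 reached 2.05 CPM beside a lowest WT value of 2.09 CPM.

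*Stxbp6* was more abundant in 67NR, where it was lower in the knockouts but never lost. WT replicates had 31.5, 31.6 and 17.9 CPM, *Kmt2c* KO replicates 10.8, 11.4 and 7.96 CPM and *Kmt2d* KO replicates 24.3, 20.5 and 10.7 CPM. Replicate 3 was the lowest in each group, and WT and *Kmt2d* KO libraries overlapped. *Stxbp6* fell 2.69-fold in *Kmt2c* KO cells, with a log2 fold change of -1.43 (SE 0.34, adjusted p = 0.01, edgeR). For *Kmt2d* KO cells the value was -0.55 (SE 0.33, adjusted p = 0.28, edgeR), with a 95% interval from -1.36 to 0.27. Between libraries of the same replicate number, WT was 1.3- to 1.68-fold above *Kmt2d* KO. With the replicate number added to the edgeR fit, the value was -0.57 (adjusted p = 0.014), short of the log2 fold change of 0.6 required here. The 3 groups of 67NR ranked above the 3 groups of 168FARN. 67NR WT cells, at 27 CPM, were 11.7-fold above 168FARN WT cells.

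*Sgk3*, the endosomal kinase gene, was low in 168FARN, where *Kmt2d* KO but not *Kmt2c* KO libraries lay below WT. WT replicates had 1.43, 1.82 and 1.3 CPM (43, 61 and 56 reads). The *Kmt2c* KO replicates had 1.69, 1.37 and 2.11 CPM and overlapped WT. The *Kmt2d* KO replicates had 0.13, 0.141 and 0.148 CPM, which were 3, 2 and 4 reads. The mean of 1.51 CPM in WT was 10.8-fold that of *Kmt2d* KO cells, a ratio that rests on 9 reads in the knockout and is imprecise.

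In 67NR, *Sgk3* was far higher and fell in both knockouts. WT replicates had 32.5, 39.7 and 43.5 CPM, *Kmt2c* KO replicates 8.16, 8.39 and 5.49 CPM and *Kmt2d* KO replicates 14.2, 17 and 15 CPM. The 3 groups did not overlap. The fall was 5.25-fold in *Kmt2c* KO cells, with a log2 fold change of -2.39 (SE 0.21, adjusted p = 4.3e-05), and 2.50-fold in *Kmt2d* KO cells, with -1.32 (SE 0.21, adjusted p = 0.0019), in the edgeR test. The knockout with the lower *Sgk3* was *Kmt2d* KO in 168FARN and *Kmt2c* KO in 67NR. 67NR WT cells, at 38.6 CPM, were 25.5-fold above 168FARN WT cells, at 1.51 CPM.

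**Figure D1:**
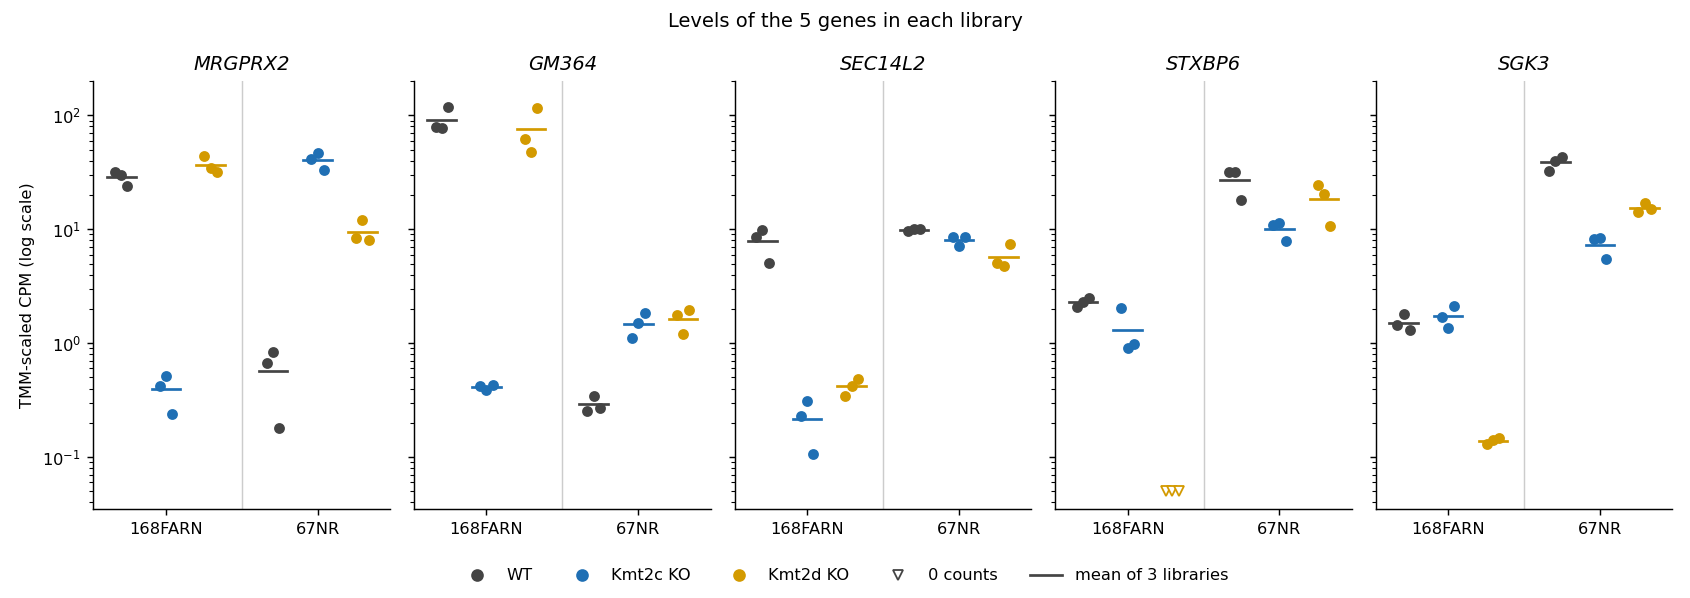
TMM-scaled CPM on a log axis of MRGPRX2, GM364, SEC14L2, STXBP6 and SGK3 in each of the 18 libraries, by line and genotype, with the mean of 3 libraries as a bar and libraries at 0 counts as open triangles. MRGPRX2 is low in 168FARN *Kmt2c* KO and in 67NR WT cells, SEC14L2 is low only in the 168FARN knockouts, and STXBP6 has 0 counts in 168FARN *Kmt2d* KO cells.

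Counted over the members, 4 of 5 passed the test in each 67NR knockout. In *Kmt2c* KO cells, *Mrgprx2* and *Gm364* rose and *Stxbp6* and *Sgk3* fell. In *Kmt2d* KO cells, *Mrgprx2* and *Gm364* rose and *Sec14l2* and *Sgk3* fell. To be called here, a gene needs an adjusted p below 0.1 and a log2 fold change beyond 0.6 in size. By that rule 35.3% of the 13665 genes tested were called in *Kmt2c* KO cells and 25.5% in the *Kmt2d* KO of 67NR. With 5 genes, a count of 4 is read beside those shares and not as a property of the group. In 168FARN the same rule calls 0.359% of 12253 genes in *Kmt2c* KO cells and 0.286% in the *Kmt2d* KO. The choice of members used those comparisons, so no count of members is given for them.

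The 2 knockouts of 67NR were also set against each other, where 1.41% of genes are called. *Mrgprx2* was higher in the *Kmt2c* KO than the *Kmt2d* KO by 2.08 on the log2 scale (SE 0.4, adjusted p = 0.06), and *Sgk3* was lower by a log2 difference of -1.07 (SE 0.21, adjusted p = 0.059), both by edgeR. Those 2 of 5 calls lie close to the threshold in this fit. With the replicate block, under which 7.29% of all genes were called, edgeR gave adjusted p = 0.00042 for *Mrgprx2* and 0.0059 for *Sgk3*. *Mrgprx2* lost its call in all 6 fits that left out 1 library and *Sgk3* in 5 of 6. *Stxbp6* differed by -0.88 (SE 0.33, adjusted p = 0.37, edgeR), and under a replicate block by -0.82, with an adjusted p of 0.012. *Sec14l2* differed by 0.49 (95% interval -0.05 to 1.02) and *Gm364* by -0.15 (-1.04 to 0.75), and neither was called.

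**Figure D2:**
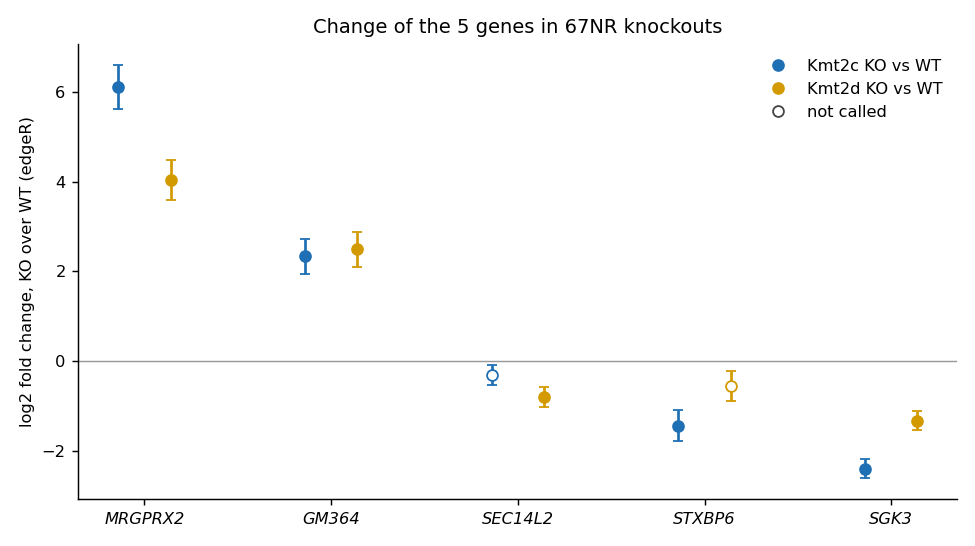
Log2 fold change of each gene in the 67NR knockouts of *Kmt2c* (blue) and *Kmt2d* (yellow) over WT from edgeR, with the standard error as bars and open points for changes that were not called. MRGPRX2 and GM364 lie above 0 in both knockouts, and SEC14L2, STXBP6 and SGK3 lie below 0.

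The WT lines themselves differed in these genes, given here without a test. *Mrgprx2* was 50.5-fold and *Gm364* 315-fold higher in 168FARN WT than in 67NR WT cells, while *Stxbp6* was 11.7-fold and *Sgk3* 25.5-fold higher in 67NR WT cells. *Sec14l2* stood at 7.85 CPM in 168FARN and 9.92 CPM in 67NR WT cells. The levels also lay beside a different make-up of lineage markers. All 6 epithelial markers listed (*Epcam*, *Cdh1*, *Krt8*, *Krt18*, *Krt19* and *Cldn7*) exceeded 1 CPM in 67NR, and their summed level was 2110 to 3410 CPM for WT, 467 to 796 CPM for *Kmt2c* KO and 789 to 1580 CPM for *Kmt2d* KO libraries. In 168FARN 1 of the 6 exceeded 1 CPM, and the sums of 124 to 390, 97.8 to 286 and 97.7 to 380 CPM overlapped between genotypes. All 6 mesenchymal markers exceeded 1 CPM in each group but 67NR WT cells, where 5 did. In the order WT, *Kmt2c* KO, *Kmt2d* KO, their sums were 7190 to 9650, 8950 to 12400 and 9900 to 14000 CPM in 168FARN, and 3120 to 5960, 4190 to 5510 and 3920 to 5530 CPM in 67NR. The overlapping sums of 67NR hide opposite shifts of single markers. Mean *Fn1* was 4350, 1110 and 1480 CPM in that order, while the other 5 had higher means in both knockouts, with *Vim* at 602, 3260 and 2740 CPM, *Cdh2* at 10.8, 201 and 155 CPM, *Zeb1* at 5.05, 73.6 and 52.7 CPM and *Snai2* at 2.36, 42.3 and 38.4 CPM. The part of these shifts in the changes of the members was not tested.

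Markers of mast cells and sensory neurons, where Mas-related receptors are best known, were low. Of 8 mast cell markers none exceeded 1 CPM in any group, 6 or 7 were at 0, *Kit* and *Cpa3* among them, and the highest summed level in a library was 0.48 CPM. Of 6 sensory neuron markers none had a group mean over 1 CPM, though *Prph* reached 1.14 CPM in 1 library of 168FARN *Kmt2c* KO cells, 2 to 4 were at 0, and the highest sum was 1.24 CPM. In these bulk samples, fewer cells with a transcript and less of it per cell cannot be told apart.

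Beyond the members, few genes of 168FARN were lost to this extent. A gene was set apart when its lowest WT library, at 1 CPM or more, was over 8-fold above its highest knockout library. In *Kmt2c* KO cells 6 genes met that rule and 0 met its mirror, in which every knockout library lies over 8-fold above WT. The 6 were *Gm364*, *Mrgprx2* and *Sec14l2* with *Plpp6*, *Fam198b* and *Cacna2d1*. *Plpp6*, a lipid phosphatase gene, had 5.12 CPM in WT and 0 reads in *Kmt2c* KO cells. *Fam198b* went from 2.69 to 0.0849 CPM and *Cacna2d1*, which encodes a calcium channel subunit, from 1.63 to 0.102 CPM.

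In *Kmt2d* KO cells 9 genes met the rule and 6 met its mirror. The 9 were *Stxbp6*, *Sec14l2* and *Sgk3* with *3830417A13Rik*, *Ptk7*, *Igsf3*, *Csn3*, *Fam198b* and *Nnmt*. *3830417A13Rik* went from 5.88 to 0.074 CPM, and *Ptk7*, a pseudokinase receptor gene of Wnt signalling, from 11.6 to 0.305 CPM. *Igsf3* went from 12.9 to 0.397 CPM, *Csn3*, the gene of the milk protein kappa-casein, from 4.12 to 0.149 CPM, and *Fam198b* from 2.69 to 0.144 CPM. *Nnmt*, which encodes nicotinamide N-methyltransferase, went from 3.97 to 0.376 CPM. *Fam198b*, like *Sec14l2*, is thus low in both knockouts, which share the WT libraries. In 67NR, where the calls are far more numerous, 107 genes were lower and 323 higher by the same rule in *Kmt2c* KO cells and 43 and 218 in *Kmt2d* KO cells, and *Mrgprx2* was the member among them, higher in both.

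**Figure D3:**
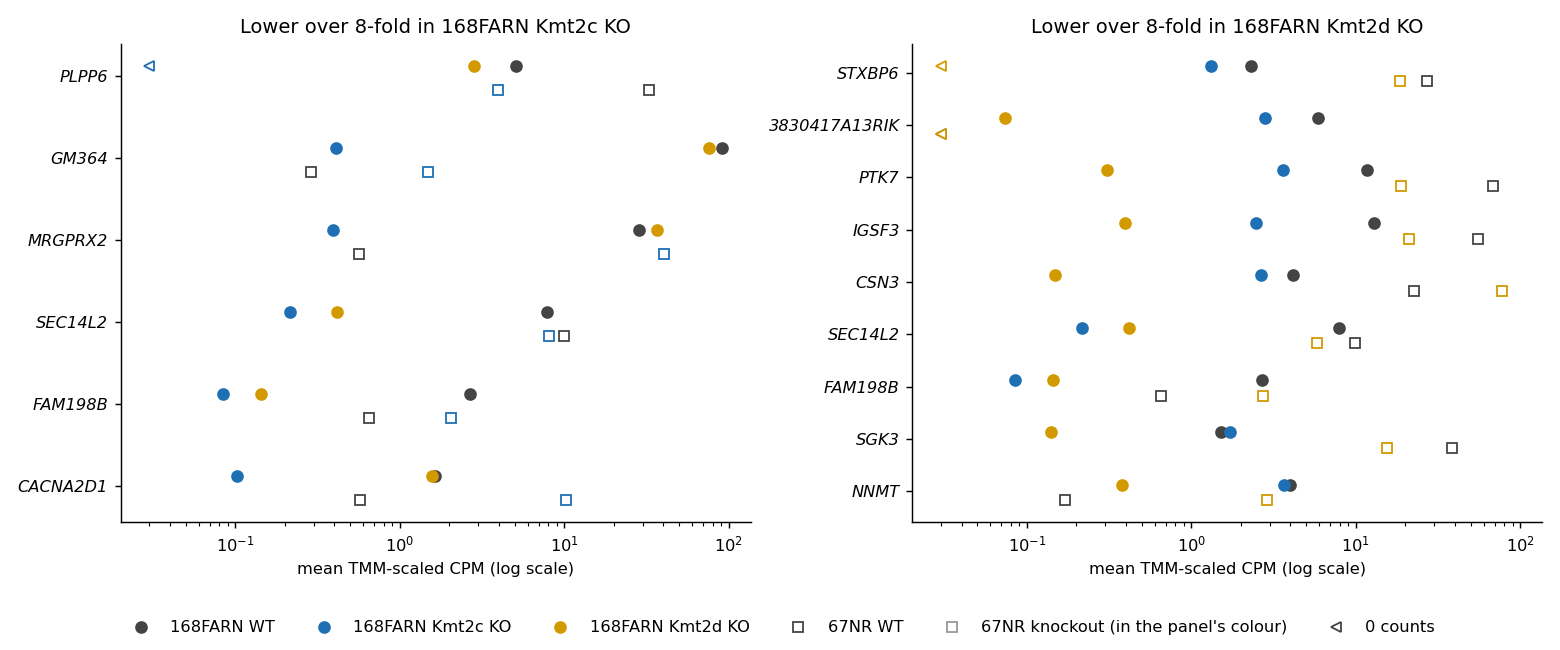
Mean TMM-scaled CPM on a log axis of the genes that were over 8-fold lower in every library of 168FARN *Kmt2c* KO cells (left, 6 genes) or *Kmt2d* KO cells (right, 9 genes), with circles for 168FARN, squares for 67NR and triangles for groups at 0 counts. MRGPRX2 and GM364 have *Kmt2d* KO levels beside WT in the left panel, and SEC14L2 and FAM198B are low in both 168FARN knockouts.

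The genes whose log2(CPM + 1) tracked a member most closely over the 9 libraries of 168FARN are named as a description, since the libraries share genotypes and collection times. For *Mrgprx2* they were *Iqcg* (Pearson r = 0.992, with group means of 8.33 CPM in WT, 2.2 in *Kmt2c* KO cells and 9.34 in the *Kmt2d* KO), *Fndc1* (0.979) and *Gm364* (0.977). For *Gm364* they were *Npepl1* (r = 0.99, with 20.7, 8.28 and 20.1 CPM), *Mrgprx2* (0.977) and *Cacna2d1* (0.97). *Sec14l2* was tracked by *Fam198b* (r = 0.974), *Slc12a1* (0.973, with 1.26, 0.208 and 0.232 CPM) and *Rassf2* (0.973, with 0.669, 0.0843 and 0.0841 CPM). *Stxbp6* was tracked by *Csn3* (r = 0.953), *Samd9l* (0.94, with 9.98, 8.77 and 2.41 CPM) and *Sirt7* (0.937, with 17.9, 16.7 and 14.5 CPM, a far smaller fall). *Sgk3* was tracked by *Cd248* (r = 0.975, with 0.933, 1.09 and 0.108 CPM), *Rbm43* (0.955, with 7.33, 7.36 and 4.23 CPM) and *Samd9l* (0.953). Where a member tracked another member, both had been picked by their fall in these libraries.

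The 5 nearest genes on each side of each member, 50 in all, were examined as its surroundings. Of 25 neighbours tested in 168FARN, 0 were called in *Kmt2c* KO cells and 0 in the *Kmt2d* KO by edgeR. The filter on low counts left out the other neighbours. Over all genes edgeR called 0.359% and 0.286%, so a count of 0 cannot show whether a loss reached beyond the gene. An unadjusted p under 0.05 was found for 1 neighbour in each, and DESeq2 called 1 and 0. With the replicate block, under which 7.23% and 5.9% of all genes were called, edgeR called 1 in each. Those named here after their values were seen are *4930550L24Rik*, 1420.6 kb from *Gm364*, which was higher in *Kmt2c* KO cells, and *Rbmx*, 16.1 kb from *Gm364*, which was higher in *Kmt2d* KO cells. The median log2 fold change of the neighbours was 0 in *Kmt2c* KO cells and -0.07 in the *Kmt2d* KO, beside 0.01 and 0.01 over all genes. At this depth and spread the single genes had wide intervals.

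*Sec14l2* has the closest measured neighbours. *Mtfp1*, 1.6 kb away and a gene of mitochondrial fission, had a log2 fold change of 0.36 in *Kmt2c* KO cells of 168FARN (95% interval -0.47 to 1.19) and of -0.33 in *Kmt2d* KO cells (-1.18 to 0.51). *Rnf215*, 11.8 kb away on the other side, had 0.43 (-0.46 to 1.31) and -0.03 (-0.92 to 0.85). The next genes of the *Sec14l* family, *Sec14l3* and *Sec14l4*, had 0 and 3 reads over the 9 libraries of the line.

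Around the other members the nearest tested genes lay farther off. For *Gm364* these were *Rbmx*, an RNA-binding protein gene, with 0.36 in *Kmt2c* KO cells (95% interval -1.28 to 1.99), and *4930550L24Rik*, with 2.01 (0.62 to 3.39, adjusted p = 0.43 by edgeR). On one side of *Mrgprx2* none of the 5 nearest genes, all of the Mas-related family, was tested, and on the other side *Zdhhc13*, at 289.7 kb, was the nearest, with -0.31 in *Kmt2c* KO cells. *Stxbp6* had *Nrcam* at 250.5 kb, with -0.07 in *Kmt2d* KO cells (95% interval -1.62 to 1.49), and *Prkd1* at 5266.7 kb, with -0.44. *Sgk3* had *1700034P13Rik* at 6.2 kb, with -1.40 in *Kmt2d* KO cells (-2.92 to 0.12), and *Cops5* at 122 kb, with 0.09. The first of these had 0.751 CPM in WT cells and 0.271 CPM after *Kmt2d* KO, too low for a firm statement.

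In 67NR, 9 of 24 tested neighbours were called in *Kmt2c* KO cells, 8 higher and 1 lower, and 6 in *Kmt2d* KO cells, all higher. That is 37.5% and 25% beside 35.3% and 25.5% of all genes, and 10 were called in *Kmt2d* KO cells with the replicate block, where the share of all genes was 32.7%. *Mtfp1* was the neighbour that fell in *Kmt2c* KO cells, by -0.90 (SE 0.36, adjusted p = 0.085, edgeR). *Rnf215* rose by 1.29 (SE 0.19, adjusted p = 0.00073) and 1.01 (SE 0.19, adjusted p = 0.0045) in the 2 knockouts by the same test, while *Sec14l2* between them was called lower in *Kmt2d* KO and not called in *Kmt2c* KO cells. Of the neighbours of *Stxbp6*, *Nrcam*, a neural cell adhesion gene 250.5 kb away, rose by 3.12 (SE 0.73, adjusted p = 0.0098) and 2.49 (SE 0.72, adjusted p = 0.035) by edgeR. The kinase gene *Prkd1*, as far off as 5266.7 kb, rose by 4.01 (SE 0.25, adjusted p = 6.3e-06) and 3.47 (SE 0.24, adjusted p = 2e-05) in the same test. *Stxbp6* itself fell in *Kmt2c* KO cells and was not called in *Kmt2d* KO cells.

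**Figure D4:**
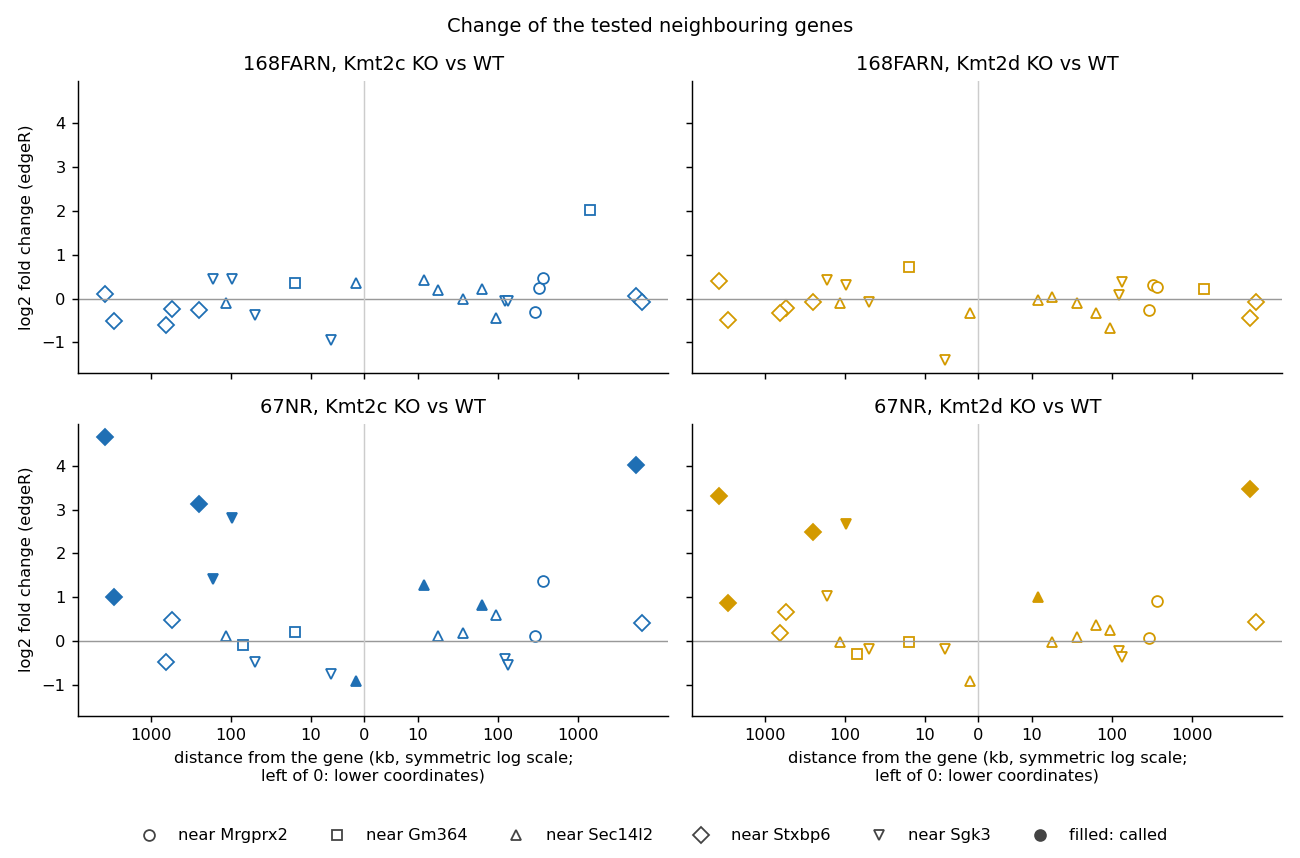
Log2 fold change (edgeR) of the tested neighbouring genes against their distance from the member in kb on a symmetric log axis, by line and knockout, with the shape giving the member and filled symbols the called genes. In 168FARN 0 neighbours are filled, and in 67NR 9 are filled in *Kmt2c* KO cells and 6 in the *Kmt2d* KO.

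Genes related to the members by family or pathway were taken from 4 lists of 99 genes, of which 96 had a row. In 168FARN 66 were tested and 0 were called in either knockout by edgeR, while 5 in *Kmt2c* KO cells and 2 in the *Kmt2d* KO had an unadjusted p under 0.05. Over all genes edgeR called 0.359% and 0.286%, so a count of 0 is near that share. DESeq2 called 1 and 0. EdgeR with the replicate block called 4 and 2, where it called 7.23% and 5.9% of all genes. The same shares stand beside the 168FARN counts of each list below. The gene called by DESeq2 was *Stx11*, a syntaxin gene. Those called with the block were *Stx11*, *Nedd4l*, *Stx1a* and *Napb*, lower in *Kmt2c* KO cells, and *Stx7*, lower, and *Ndrg1*, higher, in *Kmt2d* KO cells, all named after their values were seen. The median log2 fold change of the lists was 0.01 in each knockout, as over all genes.

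In 67NR 67 related genes were tested, of which 17 were called in *Kmt2c* KO cells, 7 higher and 10 lower, and 11 in *Kmt2d* KO cells, 7 higher and 4 lower. The shares of 25.4% and 16.4% stand beside 35.3% and 25.5% of all genes, a difference that was not tested, and the medians were -0.08 and -0.07 beside -0.02 and -0.02. Without WT replicate 3, 26 of 68 were called in *Kmt2c* KO cells, or 38.2%, beside 40% of all genes in the same fit. Leaving out any other library gave 22.1 to 25.4% in *Kmt2c* KO cells, beside 30.3 to 32.8% of all genes. For *Kmt2d* KO cells, all such fits gave 14.7 to 20.6% beside 20 to 29.3%, with 20.6% beside 29.3% without WT replicate 3.

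Among Mas-related receptors, 2 of 20 were expressed enough to be tested. *Mrgprf*, an orphan receptor of the family, stood at 18.1 ± 6.33 CPM in WT (SD, n = 3), 19.8 in *Kmt2c* KO cells and 21.9 in the *Kmt2d* KO of 168FARN, and its libraries overlapped between the genotypes. In 67NR it rose from 0.301 ± 0.263 CPM to 7.23 and 3.74 CPM, with log2 fold changes of 4.51 (SE 0.79, adjusted p = 0.0022) and 3.56 (SE 0.76, adjusted p = 0.0095) by edgeR. *Mrgprb1*, whose transcript is 85.3% identical to that of *Mrgprx2* over 1676 bases and which lies beside it, had at most 2 reads in any group. *Mrgprb2*, 71.1% identical, had 40 reads in 67NR WT cells and 1 or 0 in each other group.

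Of the CRAL-TRIO lipid-binding proteins related to *Sec14l2*, 4 of 10 were tested in 168FARN, where edgeR, with or without the replicate block, and DESeq2 called 0 and 0 had an unadjusted p under 0.05. *Sec14l1* stood at 41.3 CPM in WT, 44.5 in *Kmt2c* KO cells and 40.4 in the *Kmt2d* KO of 168FARN. In 67NR 2 of 4 were called in *Kmt2c* KO cells, 1 in each direction, and 1 of 4, higher, in *Kmt2d* KO cells. With so few genes, these counts are read beside the 35.3% and 25.5% of all genes called. *Clvs1*, which encodes the phosphoinositide-binding clavesin, rose from 0.126 CPM to 6.39 and 3.83 CPM, with log2 fold changes of 5.57 (SE 0.75, adjusted p = 0.00049) and 4.83 (SE 0.73, adjusted p = 0.0016) by edgeR.

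Of the SNARE proteins and their regulators, which surround *Stxbp6* in vesicle fusion, 33 of 40 were tested in 168FARN and edgeR called 0, with 4 and 2 at an unadjusted p under 0.05. DESeq2 called *Stx11* in *Kmt2c* KO cells, and edgeR with the replicate block called 3 and 1. *Stxbp5*, which encodes tomosyn, a syntaxin-binding inhibitor related in function, stood at 47.3 CPM in WT, 32.2 in *Kmt2c* KO cells and 44 in the *Kmt2d* KO of that line. In 67NR 8 were called in *Kmt2c* KO cells, 3 higher and 5 lower, and 5 in *Kmt2d* KO cells, 2 higher and 3 lower. That is 24.2% and 15.2% of the list, beside 35.3% and 25.5% of all genes. *Cplx2*, which encodes the fusion clamp complexin, rose from 2.85 CPM to 63.3 and 40.6 CPM (log2 fold changes 4.47, adjusted p = 1.5e-05, and 3.83, adjusted p = 4.8e-05, edgeR). The plasma membrane syntaxin gene *Stx4a* rose from 29.3 CPM to 80.3 and 58.4 CPM. *Stxbp2*, which encodes the fusion factor Munc18-2, fell from 69.8 CPM to 19.5 and 28.1 CPM (log2 fold changes -1.84, adjusted p = 0.00022, and -1.31, adjusted p = 0.0024, edgeR), and the endosomal syntaxin gene *Stx7* fell from 195 to 100 CPM in *Kmt2c* KO cells.

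Of the SGK and AKT kinases with their regulators and targets, 27 of 29 were tested in 168FARN and 28 in 67NR. None was called in 168FARN by edgeR, where 1 had an unadjusted p under 0.05 in *Kmt2c* KO cells and 0 in the *Kmt2d* KO, DESeq2 called 0 in each, and edgeR with the replicate block called 1 in each. *Sgk1*, the paralog best known for sodium transport, stood at 73.3 ± 11.5, 71.5 ± 36.4 and 81.3 ± 52.7 CPM in the 3 genotypes of 168FARN (SD, n = 3). In 67NR 6 were called in *Kmt2c* KO cells, 2 higher and 4 lower, and 4 in *Kmt2d* KO cells, 3 higher and 1 lower. These were 21.4% and 14.3% of the genes tested, beside 35.3% and 25.5% over all genes. While *Sgk3* fell there, *Sgk1* rose in *Kmt2d* KO cells from 64.5 to 102 CPM, by 0.66 (SE 0.2, adjusted p = 0.041, edgeR). *Sgk2* rose from 0.642 CPM to 7.14 and 4.67 CPM, by 3.52 (SE 0.72, adjusted p = 0.0048) and 2.91 (SE 0.7, adjusted p = 0.017) in the same test.

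**Figure D5:**
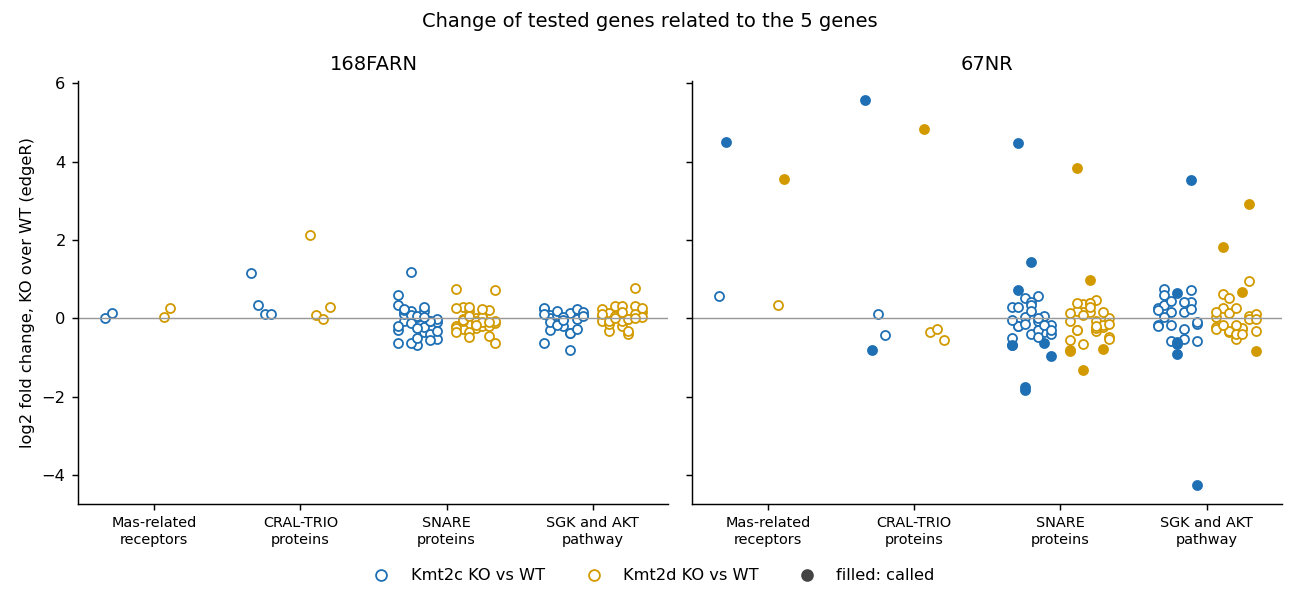
Log2 fold change (edgeR) of the tested genes of the 4 lists related to the members in 168FARN (left) and 67NR (right), with *Kmt2c* KO in blue, *Kmt2d* KO in yellow and called genes filled. In 168FARN 0 are filled, and in 67NR *Mrgprf*, *Clvs1*, *Cplx2* and *Sgk2* are the highest filled points of their lists in *Kmt2c* KO cells.

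Some counts of the members could be shared with other genes. The transcript of *Sgk3* is 90.7% identical to that of *Mrps36* over 631 bases, and 69.7% to *Sgk1*. *Mrps36* stood at 33.2 to 37.4 CPM in 168FARN WT and at 29.6 to 40.2 CPM in *Kmt2d* KO cells, where *Sgk3* had 3, 2 and 4 reads. *Sec14l2* is 76.2% identical to *Sec14l3*, which had 0 reads in all 18 libraries. Pseudogenes, a small RNA or a processed transcript of the annotation overlap *Sec14l2*, *Stxbp6* and *Sgk3* and have no row of counts. The processed transcript, *Gm15902*, lies on the same strand as *Stxbp6*, and the other features lie on the strand opposite to the member. The strand setting of the counting was not given in the sources used here, so reads of overlapping features cannot be told apart.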

How the data were processed

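Whole-gene read counts of 18 RNA-seq libraries were analysed, 3 for each genotype (WT, *Kmt2c* KO, *Kmt2d* KO) of 168FARN and 67NR. Libraries were made from poly(A) RNA, per the labels, with a strand-specific mRNA kit (KAPA mRNA HyperPrep). The authors ran STAR against mm9 within the VIPER pipeline and deposited raw counts for each gene symbol, without normalization. Columns were matched to samples by name, with 0 columns left over. The 5 genes, the related-gene and marker lists and the tests were chosen with earlier results of these data known.

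Counts were fitted per line over its 9 libraries with genotype as the factor, using edgeR 4.0.16 (R 4.3.3, limma 3.58.1) with TMM scaling, the filter on low counts by genotype and robust quasi-likelihood tests. Benjamini-Hochberg adjustment covered 12253 genes in 168FARN and 13665 in 67NR. Each standard error was taken as the log2 fold change over the root of F, and 95% intervals use them with the residual degrees of freedom alone. The procedure was tested on simulated data drawn without a replicate effect. That test does not cover the deviations shared by libraries of the same replicate number. No p of the 5 genes in 168FARN is given, since their falls there chose them. Against a group at 0, a fold is a bound from a floor of 3 counts in each library, which covers counting error only.

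Positions, neighbours and transcripts came from an mm9 annotation. Neighbours are the 5 nearest protein-coding, lincRNA or processed-transcript genes on each side that have a row in both tables, a definition refined once the files had been read. Transcripts were compared with BLAST 2.17.0. Promoter sequences came from RefSeq (GRCm38.p6), and figures from Python 3.11.15. Named genes are the 5 genes, the nearest tested neighbour on each side, called neighbours of 168FARN, up to 5 called related genes with the smallest p per comparison, 5 paralogs, the genes separated 8-fold and the 3 genes most alike in pattern. Others are named as chosen after their values were seen.

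For its heatmaps the study removed batch effects, taking each collection time as a batch. Its differential expression test used genotype as the factor. Deviations from the group means correlated at 0.75 to 0.93 between same-numbered libraries in 168FARN and at 0.49 to 0.83 in 67NR, every pair above 0.1, and the numbers were therefore taken to pair the samples. Libraries with different numbers reached 0.82 and 0.73, all between replicates 1 and 2, so these data set apart replicate 3 and do not tell 1 from 2. Alternatives were DESeq2 1.42.0 or its size factors, no filter, the replicate block, only the 6 libraries compared, an adjusted p under 0.05 with no fold threshold, each library left out, and separation by 4-fold or 16-fold or by total counts. DESeq2 with the block and fits without *Rn45s* were chosen after seeing the data.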

Additional observations from a re-analysis of the deposited data

Results flagged for a closer look

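*Mrgprx2* moved in opposite directions in the *Kmt2c* KO cells of the 2 lines. All 3 knockout libraries of 67NR lay above WT, by 71.3-fold on average, and all 3 of 168FARN lay below it, by 72.6-fold. *Gm364* did the same, at 5.12-fold above WT in 67NR and 221-fold below it in 168FARN. The difference between the lines was not tested for either gene, because the genes were picked by their 168FARN values.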

How the results depend on the processing

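The counts of the 5 genes called in 67NR were 4 in *Kmt2c* KO cells under every alternative run, and 4 in *Kmt2d* KO cells under every alternative except the fits that left out *Kmt2d* KO replicate 1 or 2, with 3 to 4 over the fits that left out 1 library. Between the 67NR knockouts, 2 genes were called, 1 with only the 6 libraries compared, 0 at an adjusted p under 0.05 with no fold threshold, 0 to 1 with 1 library left out, and 3 with the replicate block, which added *Stxbp6* (log2 difference -0.82). Without *Kmt2c* KO replicate 1, the difference of *Gm364* between the 67NR knockouts was 0.01 in place of -0.15, and over the fits with 1 library left out it was -0.34 to 0.01. In 168FARN, the neighbours called went from 0 to 1 in *Kmt2c* KO cells with DESeq2, with the replicate block and with DESeq2 and the block, and from 0 to 1 in *Kmt2d* KO cells with the block in edgeR or DESeq2. The related genes called in 168FARN were 0, and in *Kmt2c* KO cells 1 with DESeq2, 4 with the replicate block and 3 with DESeq2 and the block, and in *Kmt2d* KO cells 2 and 3 with the block in edgeR and DESeq2. In 67NR, the neighbours called in *Kmt2d* KO cells were 6, and 10 with the replicate block in either tool. The related genes called in *Kmt2c* KO cells of 67NR were 17, and 15 to 26 with 1 library left out. The replicate block changed no other call of a member. Genes set apart in 168FARN numbered 6 in *Kmt2c* KO cells, 12 at 4-fold in place of 8-fold, and 9 in *Kmt2d* KO cells, 14 at 4-fold and 1 at 16-fold. The causes of these shifts were not tested, other than that thresholds and numbers of libraries differ by construction. Levels of the 5 genes in 168FARN moved by less than their spread in all 80 values recomputed under other scalings or with 1 library left out. Depth limits the 168FARN folds. The low groups of *Sgk3* and *Sec14l2* rest on 2 to 13 reads per library and those of *Mrgprx2* and *Gm364* on 9 to 20, and *Stxbp6*, at 0 reads, has a bound only.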

Other observations

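The other genes set apart in 168FARN are given here with their 67NR group means, without a test. *Plpp6*, at 0 reads in 168FARN *Kmt2c* KO cells, had 32.9 CPM in 67NR WT cells and 3.97 CPM in the *Kmt2c* KO of that line. *Cacna2d1* had 0.577 CPM in 67NR WT cells and 10.3 CPM in the *Kmt2c* KO. *Fam198b* had 0.652 CPM in 67NR WT cells, 2.05 CPM in the *Kmt2c* KO and 2.74 CPM in the *Kmt2d* KO. Both were lower in the 168FARN knockouts in which they were set apart and higher in those of 67NR, by their means.

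Among the genes set apart in 168FARN *Kmt2d* KO cells, *Ptk7* had 68.1 CPM in 67NR WT cells and 18.8 CPM in the *Kmt2d* KO, and *Igsf3* had 55.5 and 21.1 CPM. *Csn3* stood at 22.7 and 77.6 CPM and *Nnmt* at 0.171 and 2.88 CPM, both higher in the knockout of 67NR. *3830417A13Rik* had 0 reads in both groups.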
